A study of Mus musculus with 60 samples.

Results

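Potassium channel genes were taken as all probe sets of the array whose gene symbol starts with Kcn. They number 167 of 45101 probe sets and 84 of 18193 genes. By class they hold 65 probe sets of 31 voltage-gated subunit genes, 31 of 15 inward-rectifier genes, 18 of 12 two-pore genes, 21 of 11 calcium-activated and related genes (the sodium-activated Kcnt genes included), 24 of 12 genes of auxiliary subunits, and 8 of 3 transcripts that run beside or against a channel gene and encode no channel. The signal was measured on Affymetrix mouse genome arrays in heart, gastrocnemius muscle and neocortex of male B6C3F1 hybrid mice that were housed singly. Each tissue had 4 groups of 5 arrays. Old CR mice (30 months) were placed under calorie restriction, labelled 40%, at 14 months. By the weekly calories in the study's methods the restriction was smaller than that label. Old resveratrol mice (30 months) received 4.9 mg per kg of resveratrol in the control diet, also after 14 months. Old control mice (30 months) and young control mice (5 months) ate the AIN93M control diet. All 3 tissues carry the same replicate numbers, but the labels tie no tissue to an animal, and p-values measure the spread between these arrays.

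Potassium channels let potassium ions leave the cell, which sets the resting potential and ends the action potential. Voltage-gated channels open on depolarization and repolarize heart, muscle and nerve. Inward rectifiers pass current near rest, and among them are the acetylcholine-gated channels of the atrium and the ATP-sensitive channels. Two-pore channels carry background current, calcium-activated channels follow calcium inside the cell, and auxiliary subunits change the gating or the surface level of the channels they bind.

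The 250 bases before the start of 4 genes whose signal turns up repeatedly in the results are shown 5′ to 3′ on the strand of the gene, from RefSeq (GRCm38.p6). Kcnip2 and Kcnd2 encode partners of 1 current, Kcnk1 had the highest rise with age in heart, and Kcnc1 by 1 of its probe sets changed in opposite directions in muscle and neocortex. Capitals mark GC boxes, GGGCGG on either strand.
Kcnip2 (chr19:45816064-45816313, minus strand): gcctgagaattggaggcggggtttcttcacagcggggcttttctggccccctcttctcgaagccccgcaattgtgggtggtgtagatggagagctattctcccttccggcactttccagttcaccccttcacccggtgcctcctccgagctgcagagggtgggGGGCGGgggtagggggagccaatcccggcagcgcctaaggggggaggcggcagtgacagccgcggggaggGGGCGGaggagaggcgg
Kcnd2 (chr6:21215096-21215345, plus strand): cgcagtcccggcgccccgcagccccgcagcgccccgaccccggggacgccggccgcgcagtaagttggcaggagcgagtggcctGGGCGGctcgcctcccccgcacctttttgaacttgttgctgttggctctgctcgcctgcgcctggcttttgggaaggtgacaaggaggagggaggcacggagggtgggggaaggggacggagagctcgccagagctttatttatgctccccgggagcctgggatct
Kcnk1 (chr8:125994852-125995101, plus strand): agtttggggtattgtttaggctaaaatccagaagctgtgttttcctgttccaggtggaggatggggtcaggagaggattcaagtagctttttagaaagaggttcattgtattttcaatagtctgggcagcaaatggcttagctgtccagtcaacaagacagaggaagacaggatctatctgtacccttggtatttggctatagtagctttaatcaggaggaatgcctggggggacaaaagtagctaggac
Kcnc1 (chr7:46396218-46396467, plus strand): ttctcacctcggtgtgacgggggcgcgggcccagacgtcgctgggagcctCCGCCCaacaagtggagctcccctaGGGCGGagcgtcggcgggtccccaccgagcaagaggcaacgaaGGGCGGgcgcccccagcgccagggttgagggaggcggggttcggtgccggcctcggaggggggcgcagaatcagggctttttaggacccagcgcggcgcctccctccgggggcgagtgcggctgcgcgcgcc
The GC content was 66.8% for Kcnip2, 68.8% for Kcnd2, 44.4% for Kcnk1 and 74.4% for Kcnc1. Their windows held 2, 1, 0 and 3 GC boxes in that order. The promoter table matched 64 of the 84 genes, with 89 starts. Searched on both strands, GGGCGG was found in 44.9% of these 89 windows and in 32.7% of all 32851, CCAAT in 30.3% and 33.8%, TATAAA in 3.37% and 12.4%, CACGTG in 5.62% and 6.02%, TGACGTCA in 0% and 1.55%, and TTCAGCACC in 0% and 0.301%. The median GC content was 58.8% for the members and 52.4% for all windows. A match describes the letters and not a bound site.

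Every array had a trimmed mean signal of 500. The markers fitted the labelled tissues: cardiomyocyte genes averaged 15.94 log2 in young hearts, fibre genes 15.08 in young muscles and cortical neuron genes 13.42 in young neocortices. Replicate 1 of the young control hearts and replicate 4 of the old control hearts had the lowest median correlations with the other hearts, 0.859 and 0.877. In muscle old CR replicate 2 had the lowest, 0.851, and old control replicate 1 and young control replicate 4 had high 3' over 5' control signals. Control signals moved with groups. The difference between 3' and 5' actin probe sets was 0.79 log2 in old CR hearts, 0.82 in old resveratrol hearts, 1.39 in old control hearts and 0.72 in young control hearts. Old control hearts ran between 1.255 and 1.659, with no overlap with any other heart (at most 0.955). Old control hearts enter each heart comparison with age, CR and resveratrol, and the part of this control signal in those results was not tested. In neocortex the actin difference was 0.71 in old CR, 0.89 in old resveratrol and 0.55 in old control arrays. Old control arrays ran between 0.453 and 0.603, with no overlap with old CR (0.664 to 0.771) or old resveratrol arrays (0.755 to 1.013). Added poly-A transcripts averaged 9.77 in old CR muscles and 9.86 in old resveratrol muscles, against 6.67 in old control muscles, so that preparation and diet cannot be told apart there. In neocortex they ran between 8.32 and 9.44 in old CR arrays, 9.32 and 9.91 in old resveratrol arrays and 8.36 and 9.04 in old control arrays, with no overlap of old resveratrol with old control. The part of the actin and poly-A signals in the neocortex results was not tested. Fewer cells of a type and less RNA per cell cannot be told apart in these whole tissues.

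Of the 167 probe sets, 73 passed the filter on low signal in heart, 67 in muscle and 117 in neocortex. All 3 tissues passed 37 of them, and 29 passed in none. These 29 hold every probe set of 8 genes, which thus had no tested probe set in any tissue: Kcne3, Kcnh8, Kcnj1, Kcnj2, Kcnk15, Kcnk7, Kcnmb4os1 and Kcnn3. Levels of probe sets are log2 signal and are compared only for the same probe set, except in choosing which members to name.

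In young controls the tested potassium channel probe sets were most often highest in neocortex. All 5 neocortex arrays were above the 10 of the other tissues for 74 of the 138 members tested in any tissue (53.6%), against 19.5% of all probe sets tested. The share was 63.3% for voltage-gated subunits and 70.0% for auxiliary subunits, and 31.8% for inward rectifiers. These shares depend on the filter: 56 of the 138 passed in exactly 1 tissue, and so could enter through the tissue where they are high. Kcna1 (1455785_at), a Shaker-type channel of axons, averaged 12.01 in neocortex, against 7.51 in heart and 7.88 in muscle. Kcnk1 (1448690_at), the background channel TWIK-1, averaged 11.75 in neocortex, against 6.72 in heart and 6.08 in muscle. Kcnab1, Kcnab2 and Kcnmb4, the last an auxiliary subunit of the calcium-activated BK channel, were also highest in neocortex. Kcnip2 (1425870_a_at) averaged 11.27 in heart and 11.12 in neocortex, which overlapped, and 4.42 in muscle.

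Heart was highest for 15 members (10.9%; all probe sets 8.24%), and two-pore channels had the largest share by class, 30.8%. These 4 of 13 probe sets belong to Kcnk3 and Kcnk6 alone, and 5 of the 13 (38.5%) were highest in neocortex. Kcnk3 (1425341_at), the background channel TASK-1, averaged 11.77 in heart, against 4.24 in muscle and 7.92 in neocortex. Kcnj5 (1441590_at), a subunit of the acetylcholine-gated atrial channel, averaged 9.72 in heart, against 3.70 in muscle and 3.90 in neocortex. Kcnq1 (1449464_at), of the slow delayed rectifier, averaged 10.35 in heart, against 6.02 in muscle and 3.43 in neocortex. Kcng2, a silent subunit that modifies other voltage-gated channels, and Kcnh2, of the rapid delayed rectifier, were also highest in heart.

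Muscle was highest for 9 members (6.52%; all probe sets 9.76%). Kcna7 (1450490_at), a Shaker-type channel, averaged 12.11 in muscle, against 8.61 in heart and 4.25 in neocortex. Kcng4 (1428536_at), a silent subunit, averaged 9.94 in muscle, against 6.47 in heart and 6.93 in neocortex. Probe sets of 1 gene could differ in this order: Kcnc1 was highest in muscle by 1456944_at and in neocortex by 1423559_at. Kcnma1, the pore of the BK channel, was highest in muscle by 1428948_at and in neocortex by 1424848_at. These are descriptions with no test. The median difference between neocortex and heart was 3.91 log2 over auxiliary probe sets, 2.92 over voltage-gated, 2.51 over calcium-activated, 1.88 over two-pore and -0.46 over inward-rectifier probe sets.

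**Figure D1:**
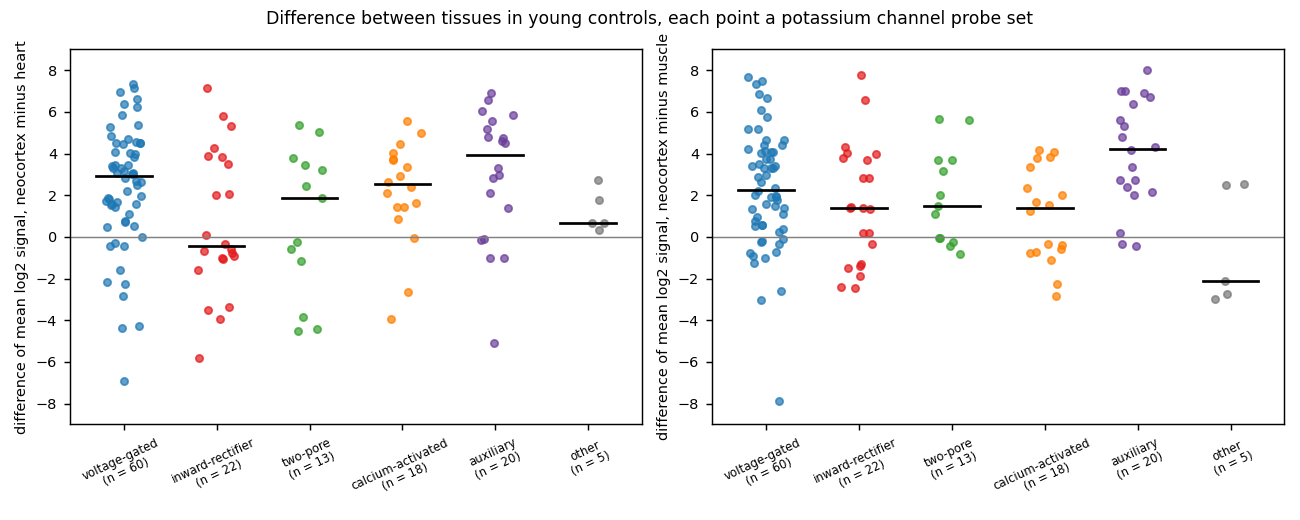
Difference in mean log2 signal between neocortex and heart, and between neocortex and muscle, in young controls (5 arrays per tissue); each point is 1 probe set tested in any tissue, by class. Auxiliary (median 3.91 over heart) and voltage-gated (2.92) members lie mostly above 0, while inward-rectifier members (median -0.46 over heart) lie on both sides.

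In old control hearts, against young control hearts, 5 of 73 tested probe sets rose and 7 fell. These 12 are 16.4%, against 12%, 5.42% rising and 6.58% falling among all 27022 probe sets tested in heart (called at an adjusted p under 0.05). The rises were those of Kcnk1, Kcnk3, Kcnj5 and Kcnd3, and the falls those of Kcnip2, Kcnd2, Kcnh3, Kcnj3 and another probe set of Kcnj5. The median change of the members was -0.02 log2, and of all probe sets -0.01.

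The highest rise was that of Kcnk1 (TWIK-1, 1448690_at). Its log2 signal was 9.11, 9.48, 8.70, 9.12 and 9.01 in old CR hearts, 8.33, 8.98, 8.49, 8.34 and 8.14 in old resveratrol hearts, 9.05, 9.08, 8.96, 9.35 and 9.30 in old control hearts and 6.93, 6.11, 6.56, 6.99 and 7.04 in young control hearts. All old hearts were above all young control hearts, and the age change was 2.42 (SE 0.21, adjusted p = 8.64e-08). The second probe set of the gene, 1455896_a_at, rose by 2.41 (SE 0.59, adjusted p = 0.00799). Its young control mean of 4.54 lay below the low-signal cut-off of 5.92, so this rise starts from low signal. Under CR the change of 1448690_at was -0.06 (adjusted p = 0.867), and under resveratrol this probe set fell by 0.69 log2 (adjusted p = 0.0249). That last call was lost without old control replicates 4 and 5 and old resveratrol replicates 1, 4 and 5 (adjusted p up to 0.0645).

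Kcnk3 (TASK-1, 1425341_at) had log2 signals of 11.08, 11.17, 10.81, 11.53 and 11.35 in old CR hearts, 10.55, 10.66, 11.28, 10.62 and 11.30 in old resveratrol hearts, 12.46, 12.57, 12.43, 12.78 and 12.66 in old control hearts and 10.97, 11.72, 11.92, 12.03 and 12.21 in young control hearts. All old control hearts were above every other heart. It rose with age by 0.81 (SE 0.19, adjusted p = 0.00449), and it fell under CR, with a change of -1.39 (SE 0.19, adjusted p = 6.83e-06), and under resveratrol, with -1.70 (SE 0.19, adjusted p = 1.26e-06). The diets share the old controls, as they do in every tissue. Kcnk3 has 2 more probe sets. 1425342_a_at fell under resveratrol (-2.05 (adjusted p = 0.00251)) and 1426058_a_at did as well (-1.95 (adjusted p = 0.00951)). With age their differences were -0.97 (adjusted p = 0.177) and 0.92 (adjusted p = 0.272), and the first of these has the opposite sign to 1425341_at. Under CR neither passed the test (-0.29 (adjusted p = 0.703) and -0.75 (adjusted p = 0.323)). For 1425342_a_at the direct difference between old CR and old resveratrol was 1.76 (SE 0.45, adjusted p = 0.032), the only such difference called among the members (1.37%; all probe sets 2.73%, 1.21% rising and 1.52% falling), and it was lost without old CR replicates 1, 2 and 4 and old resveratrol replicates 3, 4 and 5 (adjusted p up to 0.102).

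The subunits of the acetylcholine-gated channel, Kcnj5 (GIRK4) and Kcnj3 (GIRK1), gave signals that depended on the probe set. Kcnj5 by 1441590_at read 10.03, 9.77, 9.49, 10.11 and 9.67 in old CR hearts, 10.02, 10.39, 10.07, 10.23 and 10.22 in old resveratrol hearts, 10.34, 10.95, 10.73, 10.80 and 10.65 in old control hearts and 9.48, 9.93, 9.87, 9.64 and 9.68 in young control hearts. Old control hearts were the highest of the 4 groups, with overlap of 1 old control array with old resveratrol hearts. It rose with age by 0.97 (SE 0.14, adjusted p = 2.73e-05), and it fell under CR (-0.88 (adjusted p = 3.91e-05)) and under resveratrol (-0.51 (adjusted p = 0.011)). The other probe set of the gene, 1421762_at, read 8.16, 8.40, 8.15, 7.91 and 7.09 in old CR hearts, 8.78, 7.88, 7.68, 7.84 and 7.47 in old resveratrol hearts, 7.44, 6.98, 6.22, 6.73 and 7.65 in old control hearts and 7.93, 8.54, 9.33, 8.08 and 8.39 in young control hearts. Here old control hearts were below all young control hearts, with some overlap with both diet groups. It fell with age (-1.45 (adjusted p = 0.00354)) and rose under CR (0.94 (adjusted p = 0.0407)), and under resveratrol its change was 0.92 (adjusted p = 0.0539). The rise under CR was lost without old control replicates 2, 3 and 4 and old CR replicates 1, 2, 3 and 4 (adjusted p up to 0.119). The gene was thus called both ways within each of age and CR.

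Kcnj3 by 1421468_at read 9.65, 10.06, 9.73, 9.91 and 9.89 in old CR hearts, 9.89, 9.67, 10.11, 9.54 and 9.98 in old resveratrol hearts, 8.74, 9.06, 9.21, 9.42 and 9.06 in old control hearts and 9.12, 9.55, 9.94, 9.63 and 9.67 in young control hearts. Both diet groups lay above all old control hearts. It fell with age (-0.48 (adjusted p = 0.0416)), and it rose under CR (0.75 (adjusted p = 0.00104)) and resveratrol (0.74 (adjusted p = 0.00166)). The age call was lost without young control replicates 2, 3, 4 and 5 and old control replicates 1, 2, 3 and 5 (adjusted p up to 0.122). The other tested probe sets had changes of 0.35 (adjusted p = 0.217) and 0.10 (adjusted p = 0.855) with age, of the opposite sign, and of -0.06 (adjusted p = 0.861) and 0.17 (adjusted p = 0.682) under CR. Of these, 1455374_at rose under resveratrol (0.56 (adjusted p = 0.0316)), a call lost without old control replicates 1, 2 and 4 and old resveratrol replicates 2 and 3 (adjusted p up to 0.105). Atrial marker genes also moved in these hearts: 4 of 10 tested rose under CR, 6 rose under resveratrol, and 1 fell with age, beside the shares of all probe sets rising under CR (10.1%) and resveratrol (7.48%) and falling with age (6.58%). Their mean signal ran between 10.93 and 11.42 in old CR hearts, 11.05 and 11.38 in old resveratrol hearts, 10.12 and 11.06 in old control hearts, and 10.12 and 11.37 in young control hearts. Macrophage markers rose for 4 of 10 under CR and 5 of 10 under resveratrol, with list means of 9.21 to 9.88 in old CR hearts, 9.66 to 10.05 in old resveratrol hearts and 8.89 to 9.50 in old control hearts. The part of either list in these results was not tested.

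Kcnip2 (KChIP2) is the auxiliary subunit of the transient outward current, of which Kcnd2 and Kcnd3 (Kv4.2 and Kv4.3) form the pore. Kcnip2 by 1425870_a_at read 10.64, 11.14, 11.07, 10.74 and 10.51 in old CR hearts, 10.93, 10.71, 10.33, 10.82 and 10.53 in old resveratrol hearts, 10.46, 10.57, 10.21, 9.53 and 10.33 in old control hearts and 10.68, 11.54, 11.50, 11.50 and 11.13 in young control hearts. It fell with age by 1.05 log2 (SE 0.18, adjusted p = 0.000354), with no overlap between old control and young control hearts, and rose under CR (0.60 (adjusted p = 0.0202)). Under resveratrol the change was 0.45 (adjusted p = 0.106). The rise under CR was lost without old control replicate 4 and old CR replicates 2 and 3 (adjusted p up to 0.0762). The other Kcnip2 probe set 1436275_at was not called in any of these comparisons (0.19 (adjusted p = 0.441) with age), so the fall rests on 1 of the tested probe sets.

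Kcnd2 by 1422834_at read 8.18, 7.93, 8.34, 7.88 and 7.49 in old CR hearts, 7.86, 8.76, 8.69, 8.59 and 7.05 in old resveratrol hearts, 7.43, 7.79, 7.52, 7.01 and 7.62 in old control hearts and 8.26, 8.86, 8.83, 8.78 and 8.27 in young control hearts. It fell with age by 1.13 log2 (SE 0.28, adjusted p = 0.0087), and old control and young control hearts did not overlap. Its probe sets 1422835_at (-0.69 (adjusted p = 0.0287)) and 1450773_at (-0.69 (adjusted p = 0.0356)) fell too. The first was lost without young control replicates 3, 4 and 5 and old control replicates 1, 4 and 5 (adjusted p up to 0.0802), and the second without young control replicates 2 and 3 and old control replicates 1, 4 and 5 (adjusted p up to 0.11). Kcnd3 (1435720_at) instead rose, with 9.30, 9.53, 9.48, 9.64 and 9.71 in old control hearts, against 8.48, 8.79, 9.06, 9.20 and 9.25 in young control hearts. The groups did not overlap, and the change was 0.58 (SE 0.15, adjusted p = 0.0142). Its probe sets 1442555_at and 1447513_at had changes of 1.46 (adjusted p = 0.139) and -0.24 (adjusted p = 0.847). Under the diets no probe set of Kcnd2 was called.

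Among the other voltage-gated members, Kcng2 (1434838_at) fell under both diets, with 10.83, 10.88, 10.45, 10.89 and 10.97 in old CR hearts and 11.16, 10.87, 10.99, 10.94 and 11.40 in old resveratrol hearts, against 11.64, 11.28, 11.56, 11.40 and 11.63 in old control hearts. Old CR hearts lay below all old control hearts, while 1 old resveratrol array overlapped them. The changes were -0.70 (SE 0.12, adjusted p = 0.000231) for CR and -0.43 (SE 0.12, adjusted p = 0.0193) for resveratrol. The resveratrol call was lost without old control replicates 1 and 5 and old resveratrol replicates 2 and 4 (adjusted p up to 0.0592). Kcnh3 (1421619_at), an EAG-family channel, fell with age (-2.26 (adjusted p = 0.0115)) and rose under CR (2.86 (adjusted p = 0.000909)), but its old control mean of 5.02 lay below the low-signal cut-off of 5.92. Kcna7 rose under CR by 0.70 (adjusted p = 0.00472).

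The weaker CR calls in heart were the rises of Kcna1 (1417416_at, 1.46 log2), a Shaker-type channel, and Kcnip1 (1416785_at, 1.52), a Kv4 auxiliary subunit, and the fall of Kcnj14 (-0.63), an inward rectifier. The Kcna1 call was lost without old control replicates 1 and 3 and old CR replicates 2 and 5 (adjusted p up to 0.0933). The Kcnip1 call was lost without old control replicates 1 and 5 and old CR replicates 4 and 5 (adjusted p up to 0.0986). The Kcnj14 call was lost without old control replicate 3 and old CR replicate 2 (adjusted p up to 0.0573).

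In all, 7 members rose and 4 fell under CR in heart (15.1%; all probe sets 20.4%, 10.1% rising and 10.3% falling), and 2 rose and 6 fell under resveratrol (11.0%; all probe sets 15.2%, 7.48% rising and 7.69% falling). The members' shares were thus below those of all probe sets, and the median change of the members was 0.34 under CR and 0.11 under resveratrol, beside 0.08 and 0.05 for all. No calcium-activated member was called in heart in any of these comparisons. Textbook channels of heart that were not called with age were Kcna4, Kcna5, Kcne1, Kcnj8, Kcnj11 and Kcnq1. Of these, Kcnj8 (1418142_at), of the vascular ATP-sensitive channel, had a change of -0.66 (adjusted p = 0.0689) and Kcne1, the auxiliary subunit of Kcnq1, had one of -1.85 (adjusted p = 0.133) on the log2 scale. Without old CR replicate 2 the CR count was 7. Among called genes with several tested probe sets, 1 or more ran against the called one in 5 of 8 genes with age, 3 of 7 under CR and 1 of 4 under resveratrol. With the quantile normalization 5 members rose and 4 fell with age, and 4 rose and 4 fell under CR.

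**Figure D2:**
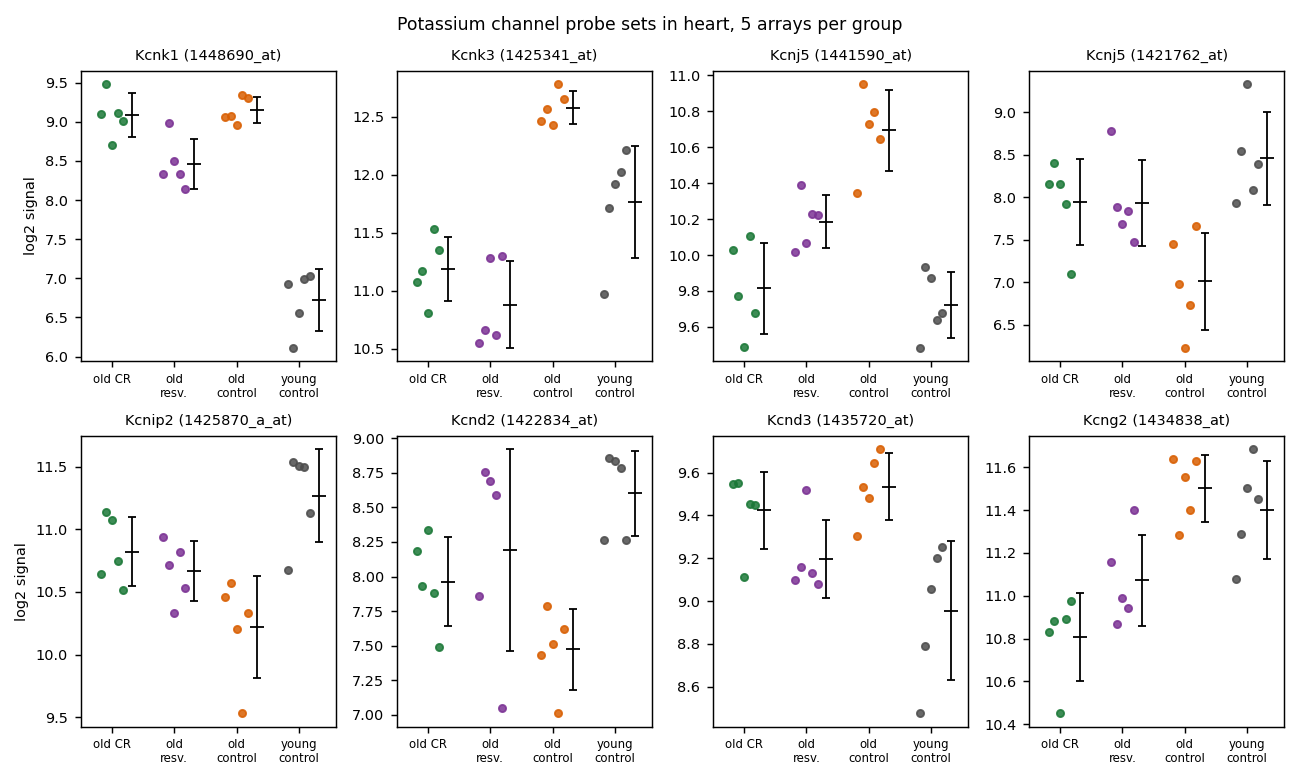
Log2 signal of 8 probe sets in the 20 heart arrays by group (old CR, old resveratrol, old control, young control); points are arrays, bars the mean and SD of 5. Kcnk1 separates all old groups from young controls, and Kcnk3 (1425341_at) is highest in old controls. The 2 probe sets of Kcnj5 run in opposite directions.

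In gastrocnemius muscle the age comparison called 1 member of 67 (1.49%; all probe sets 0.74%, 0.229% rising and 0.511% falling). Kcnab1 (1448468_a_at), which encodes the Kvβ1 subunit of Shaker-type channels, read 9.33, 9.09, 8.71, 8.86 and 8.71 in old CR muscles, 9.76, 10.39, 10.08, 9.44 and 10.04 in old resveratrol muscles, 10.30, 9.72, 10.22, 9.25 and 10.68 in old control muscles and 9.22, 8.93, 8.84, 9.13 and 9.09 in young control muscles. Old control muscles were above all young control muscles. The age change was 0.997 (SE 0.22, adjusted p = 0.0322), and the call was lost without young control replicates 1, 2, 3 and 5 and old control replicates 1, 3 and 5 (adjusted p up to 0.11). Under CR it fell (-1.09 (SE 0.22, adjusted p = 0.000833)), whereas under resveratrol its change was -0.09 (SE 0.22, adjusted p = 0.801). The direct difference of old CR minus old resveratrol was -1.002 (SE 0.22, adjusted p = 0.0474), lost without young control replicates 1, 2, 3 and 5, old control replicates 2 and 3, old CR replicates 2, 3, 4 and 5 and old resveratrol replicates 1, 2, 3 and 5 (adjusted p up to 0.145).

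The second probe set of Kcnab1, 1454043_a_at, read 5.52, 5.63, 3.87, 3.94 and 3.40 in old CR muscles, 5.57, 7.54, 7.26, 7.43 and 7.83 in old resveratrol muscles, 6.94, 8.01, 8.05, 7.33 and 8.21 in old control muscles and 7.61, 7.79, 7.75, 6.53 and 7.84 in young control muscles. Old CR muscles lay below every old control and young control muscle, and below the low-signal cut-off of 6.12. Its CR change was -3.24 (SE 0.47, adjusted p = 3.94e-05), and old CR minus old resveratrol was -2.65 (adjusted p = 0.016), lost without old CR replicate 3 and old resveratrol replicate 2 (adjusted p up to 0.0598). These 2 probe sets were the only members called between the diets in muscle (2.99%; all probe sets 0.333%, 0.148% rising and 0.185% falling).

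Under CR 15 members rose and 10 fell (37.3%; all probe sets 32.9%, 19.5% rising and 13.4% falling), and under resveratrol 3 rose and 6 fell (13.4%; all probe sets 20.4%, 10.8% rising and 9.67% falling). The median change of the members was 0.58 and 0.34 log2, beside 0.16 and 0.11 for all probe sets. With the quantile normalization CR called 7 rises and 8 falls, and the median of all probe sets was 0.03.

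Members that fell under both diets included Kcng4 and Kcnq1ot1. Kcng4 (1428536_at) read 8.63, 7.78, 9.15, 8.998 and 8.51 in old CR muscles, 8.06, 9.08, 8.06, 8.57 and 8.66 in old resveratrol muscles, 9.52, 10.03, 9.86, 10.23 and 10.36 in old control muscles and 10.25, 10.10, 9.95, 9.42 and 9.97 in young control muscles. All muscles of both diet groups were below all control muscles. The changes were -1.38 (SE 0.24, adjusted p = 0.000256) under CR and -1.51 (SE 0.24, adjusted p = 0.000203) under resveratrol. Kcnq1ot1 (1458161_at), the long noncoding RNA antisense to Kcnq1, changed by -1.10 (adjusted p = 0.00282) and -1.003 (adjusted p = 0.00823), and its probe set 1442029_at fell under CR (-0.94 (adjusted p = 0.00781)). Its probe set 1457781_at was not called under CR (-0.14 (adjusted p = 0.712)). Under resveratrol 1 of its 3 tested probe sets ran the other way, at 0.38, and was not called.

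Kcnc1 (Kv3.1), a fast delayed rectifier, depended on the probe set. By 1423559_at it read 10.20, 8.52, 10.0004, 10.66 and 10.64 in old CR muscles, 9.57, 9.51, 9.59, 9.92 and 10.05 in old resveratrol muscles, 7.98, 8.51, 8.59, 8.74 and 8.83 in old control muscles and 9.31, 9.35, 9.26, 8.78 and 9.24 in young control muscles. Old resveratrol muscles were above all old control muscles, as were all old CR muscles but replicate 2. The changes were 1.47 (SE 0.29, adjusted p = 0.000689) under CR and 1.198 (SE 0.29, adjusted p = 0.00541) under resveratrol. By 1456944_at it read 10.64, 7.10, 9.34, 10.12 and 10.17 in old CR muscles and 10.03, 9.21, 9.25, 9.72 and 9.71 in old resveratrol muscles, against 10.42, 10.69, 10.86, 10.59 and 10.63 in old control muscles. This probe set fell under CR (-1.16 (adjusted p = 0.0389)), and its resveratrol change was -1.06 (adjusted p = 0.0808). Old CR replicate 2, the array that correlated least with the other muscle arrays, was the lowest of the old CR muscles by both, and without it the CR change of 1456944_at was -0.57. The 1456944_at call was lost without old control replicates 2, 3, 4 and 5 and old CR replicates 2 and 3 (adjusted p up to 0.0737).

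Kcna1 (1417416_at) read 8.33, 8.04, 8.80, 8.42 and 8.32 in old CR muscles and 7.37, 7.95, 7.77, 7.93 and 7.74 in old resveratrol muscles, against 6.42, 6.62, 6.78, 7.44 and 5.60 in old control muscles. Old CR muscles were above all old control muscles. The change was 1.81 (SE 0.38, adjusted p = 0.00131) under CR and 1.18 (SE 0.38, adjusted p = 0.0316) under resveratrol, and the call for resveratrol was lost without old control replicates 1, 2 and 5 and old resveratrol replicates 2, 3, 4 and 5 (adjusted p up to 0.0948). Its probe set 1437230_at rose under CR (1.29 (adjusted p = 0.00417)). Kcnk6 (1435342_at), the two-pore channel TWIK-2, rose under CR (0.67 (adjusted p = 0.00627)) and under resveratrol (0.70 (adjusted p = 0.00707)), with no overlap with old control muscles in either.

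Kcnma1, the BK channel pore, fell under CR by 1425987_a_at (-0.84 (adjusted p = 0.0079)) and 1428948_at (-0.64 (adjusted p = 0.0286)), and under resveratrol by 1425987_a_at alone (-0.83 (adjusted p = 0.012)). Its signal by 1425987_a_at was 8.68, 7.90, 8.37, 8.50 and 8.81 in old CR muscles and 8.57, 7.97, 8.73, 8.63 and 8.38 in old resveratrol muscles, against 8.47, 9.52, 9.53, 9.56 and 9.37 in old control muscles. Of the old control muscles, replicate 1 was the only one within the range of the diet groups. The 1428948_at call was lost without old control replicates 1 and 2 and old CR replicates 2 and 3 (adjusted p up to 0.0818). Its other 3 tested probe sets ran the other way under both diets and were not called, with CR changes of 1.12 (adjusted p = 0.0507), 0.93 (adjusted p = 0.0803) and 0.25 (adjusted p = 0.598). Kcnj11 (1455417_at), the pore of the ATP-sensitive channel of muscle, fell under CR (-0.36 (adjusted p = 0.0338)) and resveratrol (-0.48 (adjusted p = 0.00986)), the first lost without old control replicates 2, 3, 4 and 5 and old CR replicates 1, 3, 4 and 5 (adjusted p up to 0.0835). Its other probe set, 1450515_at, had changes of the opposite sign, 1.41 (adjusted p = 0.113) and 1.40 (adjusted p = 0.151). Kcnj8, the other pore subunit of this family, fell under resveratrol (-0.49 (adjusted p = 0.0372)), a call lost without old control replicates 2, 3, 4 and 5 and old resveratrol replicates 1, 2, 3 and 4 (adjusted p up to 0.0804).

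Further rises under CR in muscle, on the log2 scale, were those of Kcnmb2 (1431844_at, 1.49), a BK auxiliary subunit, Kcnip4 (1450370_a_at, 1.70), a Kv4 auxiliary subunit, Kcna5 (1417680_at, 0.82), of the ultrarapid delayed rectifier, and Kcnh3 (1459107_at, 0.73). Those 4 held with any single array left out. The rises of Kcnj10 (1419601_at, 1.17), Kcnj13 (1456418_at, 1.63), Kcnk16 (1429913_at, 1.10), Kcnk4 (1421419_at, 1.66), Kcnh7 (1427634_at, 1.51), Kcnmb4 (1449471_at, 0.82) and Kcnd3 (1435720_at, 1.09) did not, and between 1 and 14 of the 20 arrays ended each call. The old control means of Kcnmb2 (5.55), Kcnip4 (5.59), Kcnj10 (5.77), Kcnh7 (5.89) and Kcnk4 (5.47) lay below the low-signal cut-off of 6.12. Of the 25 CR calls of members in muscle, 14 held with any single array left out and 11 under all other alternatives that tested the probe set. Without old control replicate 2 the change of Kcnj13 was 0.96. Kcnn2, a small-conductance calcium-activated channel, fell under CR (-0.66) and resveratrol (-0.74), calls ended by 14 and 8 arrays. Among called genes with several tested probe sets, 1 or more ran against the called one in 3 of 7 genes under CR and 5 of 5 under resveratrol. Of the textbook muscle channels, Kcna7 and Kcnc4 were not called, and Kcnj2, Kcnn3 and Kcne3 had no probe set above the cut-off.

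Markers of other cell types moved in the same muscles. Macrophage markers rose for 5 of 7 tested genes under each diet (all probe sets 19.5% under CR and 10.8% under resveratrol), with list means of 8.02 to 8.95 in old CR muscles, 7.73 to 9.25 in old resveratrol muscles and 7.22 to 8.17 in old control muscles. Endothelial markers fell for 5 of 8 under each diet (all probe sets 13.4% and 9.67%), with list means of 7.64 to 8.97 in old CR muscles, 8.48 to 8.76 in old resveratrol muscles and 8.93 to 9.64 in old control muscles. Their part in the channel changes was not tested.

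**Figure D3:**
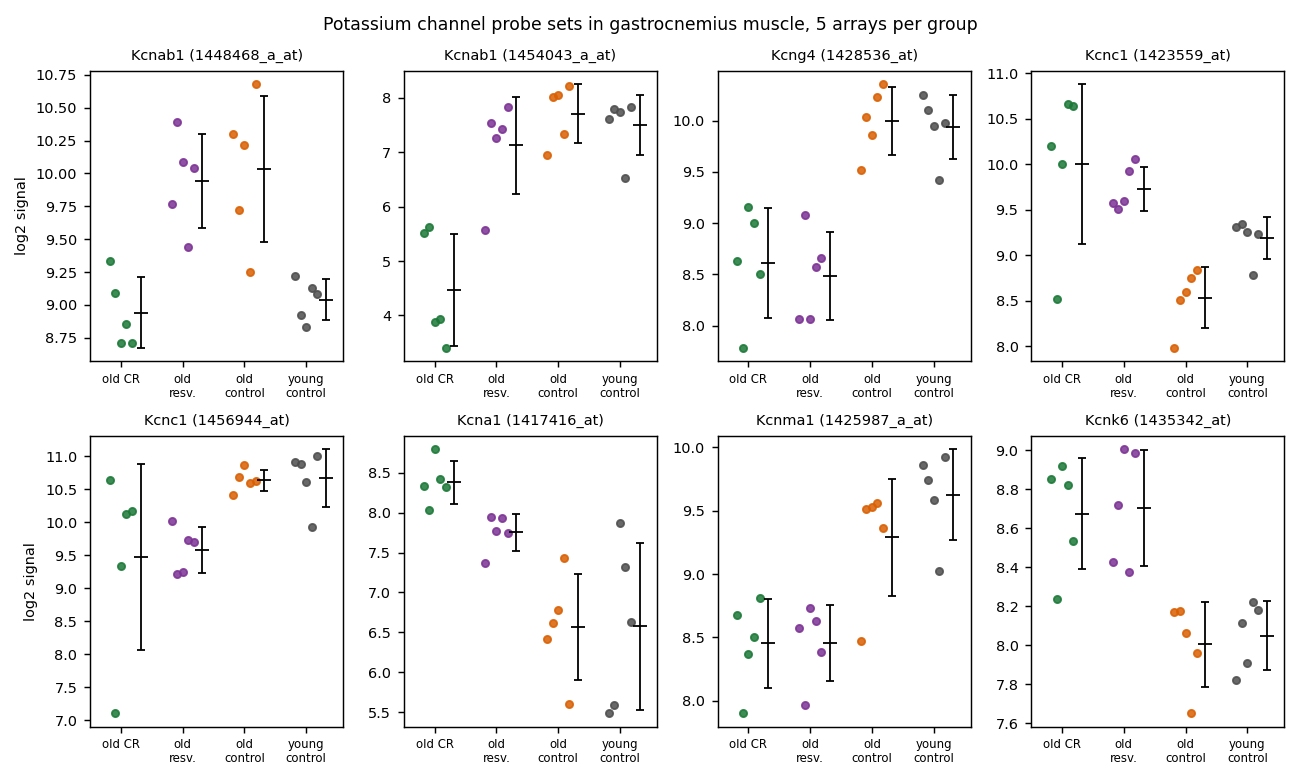
Log2 signal of 8 probe sets in the 20 muscle arrays by group (old CR, old resveratrol, old control, young control); points are arrays, bars the mean and SD of 5. Kcng4 is lower in every array of both diet groups than in every control array, and Kcnab1 (1448468_a_at) is low in old CR and young control muscles. The 2 Kcnc1 probe sets run in opposite directions.

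In neocortex no member was called between old and young controls by limma (0 of 117; all probe sets 0.74%, 0.518% rising and 0.222% falling). At an unadjusted p under 0.05 there were 16 (all probe sets 13.1%), and the methods' t-test gave 4 at an unadjusted p of 0.01. The nearest was Kcnf1 (1454768_at), a silent voltage-gated subunit, with 10.13, 10.08, 9.95, 9.62 and 10.11 in old control neocortices, against 10.22, 10.53, 10.38, 10.39 and 10.66 in young control neocortices. The groups did not overlap, and the change was -0.46 (SE 0.11, adjusted p = 0.0573).

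The diets gave 8 rises and 19 falls under CR (23.1%; all probe sets 26.4%, 11.8% rising and 14.6% falling) and 9 rises and 24 falls under resveratrol (28.2%; all probe sets 24.1%, 11.1% rising and 13% falling). By class, 2 of 53 voltage-gated members rose and 7 fell under CR (17% called), and 4 rose and 9 fell under resveratrol (24.5%). Of 17 inward-rectifier members 0 rose and 5 fell under CR (29.4%), and 3 rose and 5 fell under resveratrol (47.1%). Of 19 auxiliary members 3 rose and 6 fell under CR (47.4%), and 0 rose and 7 fell under resveratrol (36.8%). Of 9 two-pore members 2 rose and 0 fell under CR (22.2%), and 0 were called under resveratrol. Of 14 calcium-activated members 1 rose and 1 fell under CR (14.3%), and 2 rose and 3 fell under resveratrol (35.7%). Both diets are set against the same 5 old control arrays.

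The most significant fall was that of Kcnip2 (KChIP2). By 1425870_a_at it read 9.87, 9.79, 10.02, 10.02 and 10.32 in old CR neocortices, 10.41, 9.85, 9.61, 10.09 and 10.07 in old resveratrol neocortices, 10.95, 11.17, 11.19, 10.99 and 11.08 in old control neocortices and 11.19, 11.19, 11.15, 10.77 and 11.31 in young control neocortices. Every array of both diet groups was below every control array. The change was -1.07 (SE 0.12, adjusted p = 2.1e-06) under CR and -1.07 (SE 0.12, adjusted p = 2.13e-06) under resveratrol. Unlike in heart, the other probe set 1436275_at moved the same way, with -0.74 (adjusted p = 8.84e-06) and -0.57 (adjusted p = 0.000156).

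Kcnh3 (Kv12.2), a forebrain channel of the EAG family, read 9.44, 9.28, 9.22, 9.72 and 9.35 in old CR neocortices, 9.49, 9.02, 9.67, 9.41 and 9.01 in old resveratrol neocortices, 10.58, 10.26, 10.26, 10.10 and 10.34 in old control neocortices and 10.15, 10.38, 10.71, 10.74 and 10.71 in young control neocortices by 1459107_at. All diet arrays were again below all control arrays. The changes were -0.90 (SE 0.14, adjusted p = 3.78e-05) under CR and -0.99 (SE 0.14, adjusted p = 1.66e-05) under resveratrol, and 1445805_x_at fell as well (-0.76 (adjusted p = 5.37e-05) and -0.79 (adjusted p = 3.86e-05)). The remaining probe set, 1421619_at, rose under resveratrol (0.38 (adjusted p = 0.0128)), and its CR change was 0.24 (adjusted p = 0.114).

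Kcnc1 (1423559_at) read 9.49, 9.60, 9.14, 9.87 and 9.30 in old CR neocortices and 9.31, 9.41, 9.38, 9.56 and 9.26 in old resveratrol neocortices, against 10.23, 10.17, 10.26, 10.32 and 10.72 in old control neocortices. Both diet groups lay below all old controls. It changed by -0.86 (adjusted p = 0.000236) and -0.96 (adjusted p = 8.66e-05), and its probe sets 1443855_at and 1456944_at were not called. Kcnh2 (1449544_a_at) read 8.36, 7.96, 8.11, 8.55 and 8.09 in old CR neocortices and 8.24, 8.72, 8.53, 7.88 and 8.33 in old resveratrol neocortices, against 8.80, 8.96, 8.93, 9.02 and 9.0 in old control neocortices, again with no overlap, and changed by -0.73 (adjusted p = 0.000813) and -0.60 (adjusted p = 0.00425). Kcnab2, the Kvβ2 subunit, fell by 1416956_at (-0.44 (adjusted p = 0.0112) and -0.43 (adjusted p = 0.0142)). Its 1425885_a_at fell more under resveratrol (-1.16 (adjusted p = 7.75e-05)) than under CR (-0.54 (adjusted p = 0.0318)), and the difference of old CR minus old resveratrol was 0.62 (adjusted p = 0.0405). The CR call was lost without old control replicates 1, 3 and 4 and old CR replicates 4 and 5 (adjusted p up to 0.0979), and the call of the difference without old CR replicates 1, 2 and 3 and old resveratrol replicates 2, 3 and 5 (adjusted p up to 0.104).

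Among inward rectifiers, Kcnj4 fell under both diets (-0.55 and -0.74), and Kcnj9 (GIRK3) fell under resveratrol by 1426115_a_at (-0.80), 1450712_at (-0.38) and 1428602_at (-0.39), the third lost without old control replicates 1, 4 and 5 and old resveratrol replicates 2 and 3 (adjusted p up to 0.0955). Kcnj12 fell under CR (-1.12) and Kcnj11 (1450515_at) under resveratrol (-1.49). Old resveratrol replicate 3 was at 2.63 for Kcnj11 and the other 4 between 5.85 and 6.52, near the cut-off of 5.84. Without that array the change was -0.78, and by the other probe set, 1455417_at, it was -0.03 (adjusted p = 0.859). Kcnj10, the Kir4.1 channel of glia, fell under CR (-0.42), a call lost without old control replicate 4 and old CR replicates 1 and 5 (adjusted p up to 0.0819). Kcnj16, which pairs with it, rose under resveratrol by 1436163_at (0.59 (adjusted p = 0.00853)) and 1435094_at (0.67 (adjusted p = 0.0143)).

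Of the other falls, those of Kcnc4 (1425089_at) were -0.77 under CR and -0.79 under resveratrol. Under CR Kcne1l (-1.08), Kcng4 (-0.81), Kcnn1 (-0.60) and Kcnip1 (1448459_at, -0.43) fell past the threshold. Kcnt1, a sodium-activated channel, fell under resveratrol by 1458428_at (-0.57), 1441511_at (-0.53) and 1439486_at (-0.28), the third lost without old control replicate 5 (adjusted p up to 0.0509). Kcnab3 (-0.78) and Kcnf1 (1441300_at, -0.84) fell there too. Kcnip3 (1418544_at) fell under resveratrol by 0.35, a call lost without old control replicate 3 and old resveratrol replicates 1 and 4 (adjusted p up to 0.0667). A call in 1 diet and none in the other does not show that they differ.

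The rises were fewer. Kcnip4, another Kv4 auxiliary subunit, rose under CR by 3 probe sets, with changes of 0.49 (1437631_at), 0.40 (1451840_at) and 0.44 (1450370_a_at), the third lost without old control replicate 5 and old CR replicate 2 (adjusted p up to 0.0583). Kcna2, a Shaker-type channel, read 10.12, 10.19, 10.53, 10.78 and 10.07 in old CR neocortices and 10.15, 9.74, 10.40, 10.65 and 9.88 in old resveratrol neocortices, against 9.74, 9.41, 9.55, 9.64 and 9.65 in old control neocortices by 1439872_at. Old CR arrays were above all old controls. It rose under CR (0.74 (adjusted p = 0.00175)) and resveratrol (0.56 (adjusted p = 0.0134)), the second lost without old resveratrol replicate 4 (adjusted p up to 0.0515), while its 1422197_at fell under resveratrol (-0.52 (adjusted p = 0.0499)), a call lost without any 1 of 15 of the 20 arrays (adjusted p up to 0.127). Kcnma1 rose by 1424848_at (0.54 under CR and 0.50 under resveratrol), the second lost without old control replicate 1 (adjusted p up to 0.0516). Among called genes with several tested probe sets, 1 or more ran against the called one in 3 of 13 genes under CR and 9 of 20 under resveratrol. Kcnk6 rose under CR (0.51), and Kcnt2 (0.49) and Kcnq5 (0.45) rose under resveratrol. Kcnk1 (1455896_a_at) and Kcnv1 (1429741_at) also rose under CR, calls ended by 4 and 5 of the 20 arrays. The CR changes were 0.20 and 0.35 over the 2 tested probe sets of Kcnk1 and 0.04 to 0.43 over the 3 of Kcnv1. Kcnj3 (1455374_at) rose under resveratrol, a call ended by 11 of the 20 arrays, and 2 of its 4 tested probe sets ran the other way.

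Between the diets 6 members were higher in old CR and 6 lower (10.3%; all probe sets 8.03%, 3.6% rising and 4.43% falling). These 12 calls were 4 without old CR replicate 2 and 5 without old resveratrol replicate 3, and 3 of them held with any single array left out. The most significant was Kcna4 (1438613_at), an A-type channel, with 7.52, 7.44, 7.99, 7.54 and 8.25 in old CR neocortices, against 8.71, 8.47, 8.30, 8.55 and 8.53 in old resveratrol neocortices. The 2 groups did not overlap, and the difference was -0.76 (SE 0.14, adjusted p = 0.00332). Kcna4 rose under resveratrol (0.40 (adjusted p = 0.0447)), and its CR change was -0.36 (adjusted p = 0.0636). The rise was lost without young control replicate 2, old control replicates 1, 2, 3 and 5 and old resveratrol replicates 1, 2, 4 and 5 (adjusted p up to 0.126), and the other probe set, 1422255_at, had a resveratrol change of -0.47 (adjusted p = 0.113). Of the textbook channels of neocortex, Kcna1, Kcnd2 and Kcnq3 were not called in these comparisons, and Kcnc2 fell under CR (-0.28), a call ended by 11 of the 20 arrays.

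Dissection markers differed in the same arrays. Genes of striatum fell for 5 of 7 under CR and for 1 under resveratrol, with list means between 9.42 and 11.54 in old CR, 9.43 and 11.47 in old resveratrol and 11.11 and 11.68 in old control neocortices. Cortical neuron genes fell for 3 of 8 under CR and 4 under resveratrol. Macrophage and microglia genes rose for 5 of 9 under resveratrol, and 3 fell under CR. Astrocyte genes, markers of the glia that carry Kcnj10, rose for 2 and fell for 3 of 8 under CR and rose for 3 and fell for 1 under resveratrol, with list means of 11.68 to 11.86 in old CR, 11.92 to 12.10 in old resveratrol and 11.88 to 12.14 in old control neocortices. The shares of all probe sets falling were 14.6% under CR and 13% under resveratrol, and 11.1% rose under resveratrol. Their part in the channel changes was not tested.

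**Figure D4:**
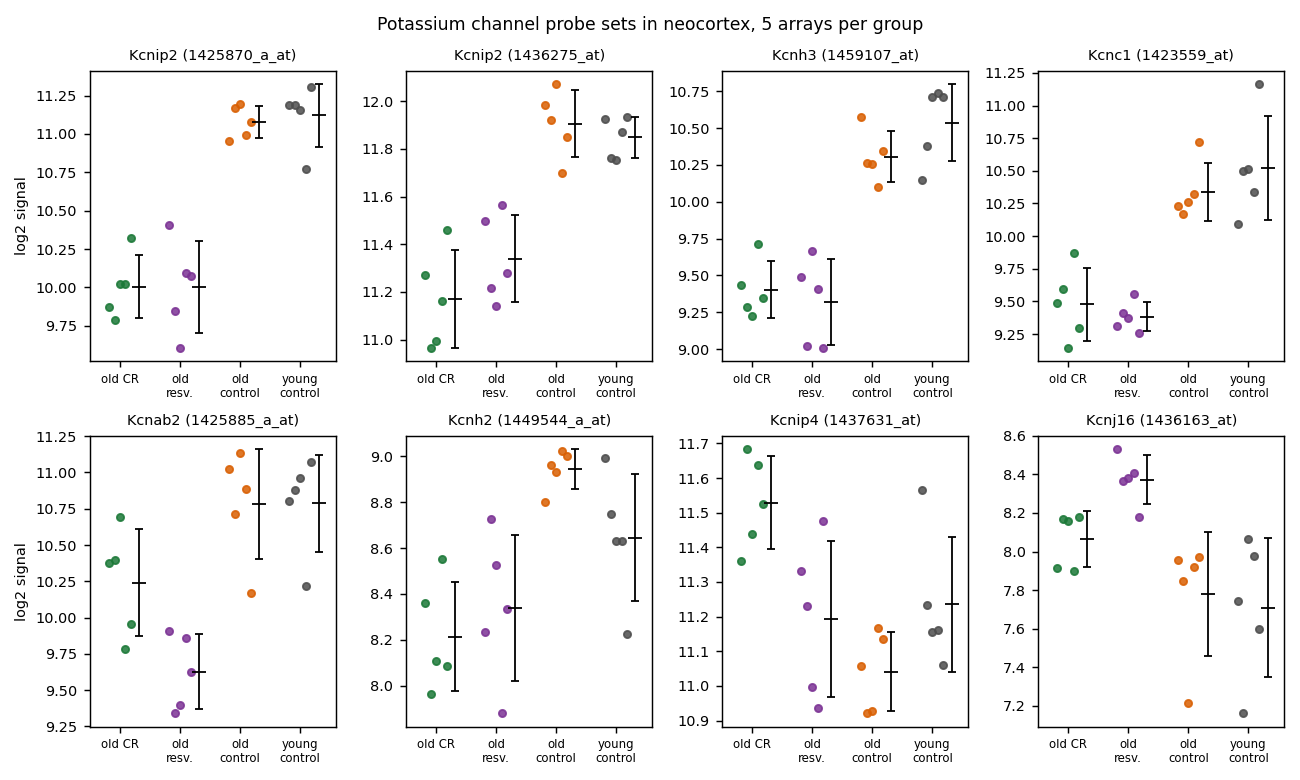
Log2 signal of 8 probe sets in the 20 neocortex arrays by group (old CR, old resveratrol, old control, young control); points are arrays, bars the mean and SD of 5. Both Kcnip2 probe sets shown, Kcnh3 and Kcnc1 are lower in every diet array than in every old control, and Kcnip4 is higher in old CR.

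Whether a change differed between tissues was tested in 1 model of all 60 arrays, which takes the tissues as coming from different mice. Of the member probe sets tested in both tissues, the age change differed for 3 of 43 between heart and muscle (all probe sets 6.27%), 3 of 55 between heart and neocortex (5.51%) and 0 of 58 between muscle and neocortex (0.736%). The CR change differed for 9 of 43 (25.8%), 4 of 55 (10.4%) and 9 of 58 (21.8%). The resveratrol change differed for 4 of 43 (21.7%), 4 of 55 (7.19%) and 4 of 58 (13.8%).

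The rise of Kcnk1 (1448690_at) with age was that of heart, where it exceeded the change in muscle by 2.65 (SE 0.47, adjusted p = 0.000191) and that in neocortex by 2.41 (SE 0.47, adjusted p = 0.000708). Under CR heart minus muscle was -1.41 (SE 0.47, adjusted p = 0.0194) for the same probe set. Its CR change was -0.06 in heart and 1.34 (adjusted p = 0.0538) in muscle, and neither was called. Its mean in old control muscles, 5.86, lay below the cut-off of 6.12. Kcnc1 (1423559_at) rose under CR in muscle and fell in neocortex, and muscle minus neocortex was 2.33 (SE 0.71, adjusted p = 0.0133) for CR and 2.16 (SE 0.71, adjusted p = 0.0322) for resveratrol. Kcnh3 (1459107_at) fell under resveratrol in neocortex and had a change of 0.70 in heart, and heart minus neocortex was 1.69 (SE 0.33, adjusted p = 0.000759).

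Kcnab1 (1448468_a_at) differed for CR between heart and muscle by 2.02 (SE 0.49, adjusted p = 0.00132), and Kcnj10, the glial channel, between muscle and neocortex by 1.59 (SE 0.38, adjusted p = 0.0013). Kcng4 differed for CR between heart and muscle by 1.78 (SE 0.59, adjusted p = 0.0201). For Kcnk3 (1425341_at) under resveratrol heart minus neocortex was -1.47 (SE 0.37, adjusted p = 0.0088), and in muscle Kcnk3 lay below the cut-off. Kcnj8 differed with age between heart and muscle by -1.06 (SE 0.32, adjusted p = 0.0336), although neither tissue's own change was called.

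**Figure D5:**
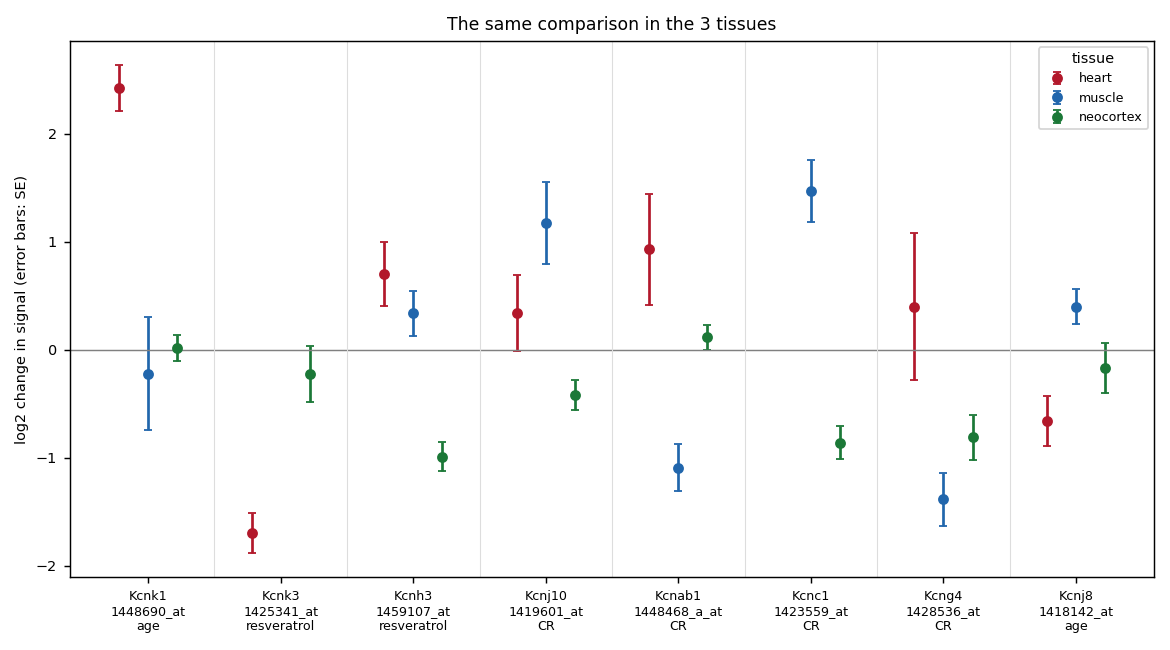
Log2 change (point) and SE (bar) of 8 probe sets in the same comparison in heart, muscle and neocortex (20 arrays each); a tissue is left out where the probe set was under the cut-off (Kcnk3 in muscle, Kcnc1 in heart). With age Kcnk1 is at 2.42 in heart, -0.22 in muscle and 0.01 in neocortex, and Kcnc1 lies on opposite sides of 0 in muscle and neocortex under CR.

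Other genes of excitability were read from lists. In heart, of 8 regulators of channel transcription, 2 rose with age (Irx5 0.71, Hand2 0.50), 4 fell under CR (among them Irx4 -1.84 (adjusted p = 2.49e-06) and Nkx2-5 -1.16 (adjusted p = 4.48e-06)) and 3 fell under resveratrol. Of all probe sets in heart 5.42% rose with age, 10.3% fell under CR and 7.69% fell under resveratrol. Irx5 represses Kcnd2 in mouse heart, and its part in the Kcnd2 result here was not tested. Of 6 sodium channel genes tested in heart, Scn4b rose with age (0.72) and fell under CR (-0.50), and Scn7a fell with age (-0.71) and rose under CR (1.17).

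In muscle 4 of 6 sodium channel genes rose and 1 fell under CR, with Scn2b at 2.24 (adjusted p = 0.000257), where 19.5% of all probe sets rose and 13.4% fell. Of 7 genes of the sodium-potassium pump and cotransporters, 3 fell under CR and 2 under resveratrol, among them Atp1b1, the pump's beta subunit (-1.44 (adjusted p = 4.06e-07) and -1.52 (adjusted p = 5.64e-07)). Abcc9, the sulfonylurea receptor that pairs with the ATP-sensitive pores, fell under both (-1.09 and -0.80). In muscle 9.67% of all probe sets fell under resveratrol. In neocortex, where 14.6% of all probe sets fell under CR and 13% under resveratrol, 5 of 14 calcium channel genes fell under CR, and 6 fell and 1 rose under resveratrol. Of 4 pacemaker and chloride channel genes 3 fell under CR, among them Hcn2 (-1.12 (adjusted p = 2.77e-05)), and 2 under resveratrol. Of 15 partners of potassium channels, 4 rose and 5 fell under CR, among them Dpp6, which pairs with Kv4 channels (-0.60 (adjusted p = 3.25e-05)), and Dlg4, which anchors Shaker-type channels (-0.88 (adjusted p = 1.51e-05)).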

How the data were processed

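Affymetrix mouse genome arrays were made from biotin-labelled cRNA of 20 hearts, 20 gastrocnemius muscles and 20 neocortices. The deposited values are intensities, linear signals that the authors made with GCOS 1.2 per the submitters' processing notes and scaled to a trimmed mean of 500. Each array was rescaled to its tissue's common 2% trimmed mean, and values below 1 were raised to 1 before log2. Probe sets were named through the platform annotation, and 64 control probe sets were left out. A probe set was tested in a tissue where its mean log2 reached the 40th percentile (5.92 in heart, 6.12 in muscle, 5.84 in neocortex), which left 27022 in each. All 20 arrays of each tissue entered 1 limma 3.58.1 fit (lmFit, eBayes with trend; R 4.3.3) with no block, and p-values were adjusted by Benjamini-Hochberg over all of these, with a threshold of 0.05. Age is old control minus young control, and each diet was set against old control. The count of members called is given beside that of all probe sets tested. Alternatives were quantile normalization, an offset of 32, no filter, the 60th percentile, 1 probe set per gene, a replicate block, the methods' t-test and leaving out arrays. The test was tried on simulated data. Members and lists were chosen with earlier results of these data known. Genes were named where a member was called (up to 10 rises and 10 falls for each tissue and comparison, 1 probe set per gene, with others where they differ), for the 6 highest members in young controls, for textbook channels of each tissue, and for up to 10 differences between tissues, with 1 difference for each other gene called given in the closing section. Array values are also shown for other probe sets of these genes, chosen with their values known. Python 3.11.15, pandas 2.3.3, numpy 2.4.6 and matplotlib 3.10.9 made tables and figures.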

Additional observations from a re-analysis of the deposited data

Results flagged for a closer look

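An array lay apart from the other 4 of its group (Dixon's critical value) in 17 of 216 groups tested, 7.87%, and chance gives about 1 in 20. In heart, Kcnk3 (1425342_a_at) was 7.78 in young control replicate 1, with the others between 8.82 and 9.22. Kcng2 (1434838_at) was 10.45 in old CR replicate 3, with the others between 10.83 and 10.97. Kcnd3 (1435720_at) was 9.11 in old CR replicate 3, with the others between 9.45 and 9.55. Kcnd3 (1435720_at) was 9.52 in old resveratrol replicate 3, with the others between 9.08 and 9.16. Kcnj3 (1455374_at) was 9.47 in young control replicate 1, with the others between 10.29 and 10.48. In muscle, Kcnc1 (1423559_at) was 8.78 in young control replicate 4, with the others between 9.24 and 9.35. Kcnab1 (1454043_a_at) was 6.53 in young control replicate 4, with the others between 7.61 and 7.84. Kcnab1 (1454043_a_at) was 5.57 in old resveratrol replicate 1, with the others between 7.26 and 7.83. Kcnq1ot1 (1458161_at) was 9.35 in old control replicate 1, with the others between 9.69 and 9.81. Kcnh3 (1459107_at) was 9.60 in old control replicate 5, with the others between 8.79 and 8.89. In neocortex, Kcnc1 (1423559_at) was 10.72 in old control replicate 5, with the others between 10.17 and 10.32. Kcnc4 (1425089_at) was 7.55 in young control replicate 1, with the others between 8.10 and 8.30. Kcnip2 (1425870_a_at) was 10.77 in young control replicate 4, with the others between 11.15 and 11.31. Kcnj16 (1436163_at) was 7.21 in old control replicate 3, with the others between 7.85 and 7.97. Kcnf1 (1441300_at) was 6.75 in old resveratrol replicate 5, with the others between 7.79 and 8.02. Kcnh3 (1445805_x_at) was 10.27 in young control replicate 1, with the others between 10.61 and 10.74. Kcnj11 (1450515_at) was 2.63 in old resveratrol replicate 3, with the others between 5.85 and 6.52. 

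By the test of the difference itself, 40 changes differed between tissues, in 17 genes, and 1 is given for each gene. The values are log2 differences of changes. Kcnk1 (1448690_at) differed by 2.65 for age (heart minus muscle, adjusted p = 0.000191). Kcnh3 (1459107_at) differed by 1.69 for resveratrol (heart minus neocortex, adjusted p = 0.000759). Kcnj10 (1419601_at) differed by 1.59 for CR (muscle minus neocortex, adjusted p = 0.0013). Kcnab1 (1448468_a_at) differed by 2.02 for CR (heart minus muscle, adjusted p = 0.00132). Kcnk3 (1425341_at) differed by -1.47 for resveratrol (heart minus neocortex, adjusted p = 0.0088). Kcnk2 (1449158_at) differed by 1.23 for resveratrol (heart minus muscle, adjusted p = 0.00407). Kcnj11 (1450515_at) differed by 2.89 for resveratrol (muscle minus neocortex, adjusted p = 0.00749). Kcnip1 (1416785_at) differed by 1.77 for CR (heart minus neocortex, adjusted p = 0.0116). Kcnj8 (1418142_at) differed by -1.06 for age (heart minus muscle, adjusted p = 0.0336). Kcnc1 (1423559_at) differed by 2.33 for CR (muscle minus neocortex, adjusted p = 0.0133). Kcnd3 (1435720_at) differed by -1.20 for CR (heart minus muscle, adjusted p = 0.0119). Kcna1 (1417416_at) differed by 1.65 for CR (muscle minus neocortex, adjusted p = 0.0148). Kcng4 (1428536_at) differed by 1.78 for CR (heart minus muscle, adjusted p = 0.0201). Kcnk6 (1435342_at) differed by -0.71 for CR (heart minus muscle, adjusted p = 0.0207). Kcnn2 (1448927_at) differed by 1.01 for resveratrol (heart minus muscle, adjusted p = 0.0332). Kcna2 (1440759_at) differed by 1.59 for CR (heart minus muscle, adjusted p = 0.0337). Kcnk4 (1421419_at) differed by 1.85 for CR (muscle minus neocortex, adjusted p = 0.0462). For Kcnj11 old resveratrol replicate 3 of neocortex was 2.63, its neocortex change was -0.78 without that array, and its probe set 1455417_at differed by -0.45 (adjusted p = 0.0458).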

How the results depend on the processing

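Of 141 results of single probe sets, 3304 of 3779 values under the alternatives kept their call and 475 lost it, and none changed direction. A setting that did not test a probe set gave no value for it. Most values came from leaving out 1 array, also arrays outside the comparison. Counts of called members moved as follows. With the quantile normalization heart CR against resveratrol gave 0, muscle CR 15 (7 rose, 8 fell) and neocortex age 1, and the median of all probe sets under CR in muscle was 0.03 against 0.16. Without the filter muscle CR against resveratrol gave 1 and neocortex CR against resveratrol 5. With the 60th percentile as cut-off heart CR against resveratrol gave 2, muscle CR 13, muscle CR against resveratrol 1, neocortex age 1 and the difference between tissues 18 (40 otherwise). With 1 probe set per gene heart age gave 5, CR 6 and resveratrol 5, muscle CR against resveratrol 1, neocortex age 1, CR 15, resveratrol 14 and CR against resveratrol 5, and the difference between tissues 25, where fewer probe sets were tested. The methods' t-test at an unadjusted p of 0.01 gave 5 for muscle age, 13 for CR, 14 for resveratrol and 4 for CR against resveratrol, and 4 for neocortex age and 20 for resveratrol. After Benjamini-Hochberg it gave 4 for heart age, 5 for resveratrol and 0 for CR against resveratrol, 0 for muscle age, 14 for CR, 14 for resveratrol and 0 for CR against resveratrol, and 20 for neocortex resveratrol and 2 for CR against resveratrol. With the 2 arrays that stand apart left out of heart (replicate 1 of young control, replicate 4 of old control) or muscle (young control replicate 4, old control replicate 1), a choice made after seeing the data, heart CR against resveratrol gave 2 and muscle age 2. Apart from where a cut-off or the number of probe sets shows it, the cause was not tested.

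Leaving out each array in turn gave 9 to 14 calls for heart age, 7 to 12 for CR, 6 to 12 for resveratrol and 0 to 2 for CR against resveratrol. In muscle it gave 0 to 3, 17 to 29, 6 to 12 and 0 to 2, and in neocortex 0 to 1, 21 to 29, 27 to 33 and 4 to 13. With the replicate number as a block, muscle CR against resveratrol gave 1 and neocortex age 1. Same-numbered arrays of a tissue correlated by -0.23 to 0.12 in their deviations from the group means. In muscle 3 of 5 arrays matched their own number best under each diet, and in heart 0 under CR and 1 under resveratrol. With 5 pairs for each comparison this does not settle whether the numbers pair the samples. The number of arrays limits the precision, and signals near the cut-off are the least certain.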
